A study of Homo sapiens with 18 samples.

Results

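The proteasome genes analysed here were all entries of the expression table whose gene symbol was PSM followed by a letter from A to G and a number. This rule took 56 probes of 47 genes, out of 21111 probes and 19289 gene symbols in the table. It used names alone and no measured value. The set held the subunits of the 20S core and of the 19S regulatory particle, their assembly chaperones, the subunits of the immunoproteasome, the proteasome activators and the inhibitor PSMF1. PSMA6 and PSMD9 were measured with 3 probes each, and PSMA1, PSMB1, PSMB2, PSMB4 and PSMC3 with 2 probes each. The table held no entry for the ubiquitin receptor PSMD4 that was used here.

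The study asked how expression changes when ASAP1, an Arf GTPase-activating protein, is depleted in triple-negative breast cancer (TNBC) cells. BT549, Hs578T and SUM149PT, 3 established human breast cancer cell lines, were transfected with 50 nM of an siRNA pool against ASAP1 (siASAP1) or with the control siRNA (siCtrl), which the methods describe as a pool of kinase siRNAs, and were lysed after 72 h. Each line and treatment had 3 libraries, described as biological triplicates, so that 18 libraries formed 6 groups. Every group was a single cell line, and the siCtrl cells were transfected as well.

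The proteasome is the protease that breaks down proteins tagged with ubiquitin. Its 20S core is a barrel of 2 outer rings of alpha subunits (PSMA genes) and 2 inner rings of beta subunits (PSMB genes), and the beta subunits PSMB5, PSMB6 and PSMB7 hold the cutting sites. The 19S particle caps the barrel. Its ring of ATPases (PSMC genes) unfolds the substrate, and its other subunits (PSMD genes) bind and remove ubiquitin. Under interferon, PSMB8, PSMB9 and PSMB10 can take the place of the 3 catalytic subunits and form the immunoproteasome, which favours peptides for MHC class I presentation. The transcription factor NFE2L1 is known to raise proteasome genes together through antioxidant response elements when proteasome activity is short.

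TempO-Seq joins 2 neighbouring detector oligonucleotides on each target RNA and counts the joined product, so a probe reads 1 short site. The deposited values are log2 of the size-factor-normalized count plus 1, and normalized counts below are those values with the log2 undone and 1 subtracted. Probes differ in efficiency, so that levels are compared here between libraries for the same probe and never between genes. In bulk lysates, fewer cells with a transcript and less transcript per cell cannot be told apart.

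The promoters of PSMB4, PSMC4 and PSMB9 are shown because PSMB4 was lower and PSMC4 higher with siASAP1 in BT549, and PSMB9 differed between the cell lines. The sequences come from RefSeq on GRCh38.p14, which listed a promoter for 42 of the 47 genes. They lie before the RefSeq start of each gene on the plus strand, read 5′ to 3′, and leave out annotated exons. GENCODE 29 starts PSMB9 further upstream, at position 32844136 of chromosome 6, so that the PSMB9 stretch lies in an intron of its longer transcripts there. Capitals mark the core of the antioxidant response element (TGANNNNGC, N being any base) and the GC box (GGGCGG) in the PSMB4 and PSMC4 promoters, and the GC box in the PSMB9 promoter. The PSMB9 stretch also holds 1 match to the antioxidant response element core, gcctcgtca, which is not marked. Both strands were searched, and no marked match overlapped another.
PSMB4, chr1:151399323-151399533: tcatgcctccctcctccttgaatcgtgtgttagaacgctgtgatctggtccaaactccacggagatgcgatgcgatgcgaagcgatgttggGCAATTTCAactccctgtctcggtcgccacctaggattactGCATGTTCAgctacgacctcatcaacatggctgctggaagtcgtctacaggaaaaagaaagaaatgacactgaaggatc
PSMC4, chr19:39970915-39971004: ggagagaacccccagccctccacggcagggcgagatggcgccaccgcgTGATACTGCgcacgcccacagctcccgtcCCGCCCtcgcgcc
PSMB9, chr6:32853979-32854147: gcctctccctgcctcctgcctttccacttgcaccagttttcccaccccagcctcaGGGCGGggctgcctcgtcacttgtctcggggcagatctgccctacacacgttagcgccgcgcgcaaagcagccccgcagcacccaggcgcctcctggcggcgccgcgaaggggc

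The printed PSMB4 stretch held 2 matches to the antioxidant response element core and no GC box, and the printed PSMC4 stretch held 1 match to each. The PSMB9 stretch lies between an exon of PSMB9 and the first exon of TAP1, a peptide transporter gene on the opposite strand. Within the 250 bases before the start, the antioxidant response element core was found in 23 of the 42 proteasome promoters (54.8%), against 35.4% of the 27305 genes in the promoter table. The GC box was found in 26 of 42 (61.9%) against 42.3%, and the CCAAT box (CCAAT) in 18 of 42 (42.9%) against 33.0%. Of the motifs known from interferon response, a core of the interferon-stimulated response element, GAAA and GAAA with 2 bases between them, was found in 5 of 42 (11.9%) against 3.07%. The GAS element (TTCNNNGAA) was found in 5 of 42 (11.9%) against 6.78%. Among the genes with the interferon-stimulated core were PSMB10 and also PSMB4, where gaaaaagaaa in the printed stretch is not marked. PSMB8 and PSMB9 had 0 matches to this core and 0 to the GAS element. These shares describe letters in a window and not bound sites.

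The 18 libraries held between 4633629 and 12488575 reads. The normalized count of ASAP1 was lower in all 3 siASAP1 libraries than in all 3 siCtrl libraries of BT549 and of Hs578T. The group means were 627 with siASAP1 and 1006 with siCtrl in BT549, and 956 and 1918 in Hs578T. The Log2 FC of ASAP1 was -0.75 in BT549, -0.98 in Hs578T, -1.16 in SUM149PT and -0.96 over the 3 lines. By the call limits used below for the proteasome probes, ASAP1 itself was called in none of these comparisons. In SUM149PT, the library labelled SUM149PT siCtrl 2 read 189 for ASAP1, within the 184 to 468 of the siASAP1 libraries, while the other siCtrl libraries read 1087 and 1314. The Log2 FC of ASAP1 in SUM149PT given above includes this library, and all siASAP1 libraries lay below both other siCtrl libraries. The library labelled SUM149PT siCtrl 2 also had the largest spread from its triplicate over all probes (SD 1.40 on the log2 scale). Several of the values it moved are therefore also given without it. For other genes, chosen after their values were seen, it lay with the siCtrl libraries. UBE2M read 399 in it, above the 90.0 to 164 of the siASAP1 libraries, NPLOC4 read 11609, below their 20559 to 48088, and an FN1 probe (FN1_27231) read 753, below their 3493 to 5346. The epithelial marker EPCAM was between 20396 and 36679 in SUM149PT siCtrl libraries and at most 23.6 in those of BT549 and Hs578T. Of the receptors that define TNBC, PGR was at 0 in all siCtrl libraries but Hs578T siCtrl 1, where 1 of its 3 probes read 3.38. The probe ESR1_12234 read 24.3 to 54.7 in SUM149PT siCtrl libraries, 7.88 to 13.1 in those of Hs578T and 0 in those of BT549. The other ESR1 probe, ESR1_2235, read 0 in all 18 libraries. ERBB2 read 32.4 to 66.6 with siCtrl in BT549, 17.7 to 75.9 in Hs578T and 14.6 to 110 in SUM149PT. The leukocyte markers PTPRC and CD3E were at 0 in all 9 siCtrl libraries. For the endothelial marker PECAM1, the probe PECAM1_14079 was between 51.2 and 103 in SUM149PT siCtrl libraries and between 0 and 2.10 in those of BT549. In those of Hs578T it was between 13.9 and 24.6, and the other probe, PECAM1_5057, was at 0 in all 18 libraries.

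Of the 56 probes, 41 probes of 35 genes had a mean normalized count of at least 10 over the 18 libraries and were tested (73.2%, against 49.6% of all probes in the table). The 20S beta ring was the best covered, with all 10 of its probes and all 7 genes tested. The alpha ring had 7 of 10 probes, the ATPases 6 of 7, the non-ATPase subunits of the 19S particle 8 of 10 and its assembly chaperones 3 of 5. The activators had 3 of 4 probes, the 20S assembly chaperones 2 of 4, the inhibitor 1 of 1 and the immunoproteasome 1 of 3. The 12 genes without a probe tested over the 18 libraries were PSMA1, PSMA7, PSMC6, PSMD1, PSMD2, PSME1, PSMG2, PSMG4, PSMB8, PSMB10, PSMA8 and PSMB11. PSMA8, known from testis, and PSMB11, known from the thymus, had no read in any library, nor did the assembly chaperone PSMG2. Several of these genes are needed in every cell, such as the ATPase PSMC6 with a total of 1 read and the 19S scaffold subunits PSMD1 and PSMD2. The part of probe efficiency in such values was not tested. The limit on low values was applied within each comparison, so the sets differ by 1 or 2 probes. In SUM149PT a PSMA1 probe was tested (PSMA1_16796, Log2 FC 2.88 ± 1.59, unadjusted p = 0.107 by limma) and PSMB5 was not, in Hs578T PSMC3_5517 was not, and between the siCtrl groups PSMB5 was not.

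PSMB4 and PSMC4 lay in opposite directions after ASAP1 silencing. PSMB4, a beta-ring subunit without a cutting site of its own, had a negative Log2 FC by both of its probes in every line, and PSMC4, an ATPase of the 19S base, had a positive one. Both genes are in the study's list of genes changed in at least 2 lines, which was chosen on these same libraries, so their directions are not independent evidence. Over the 3 cell lines, PSMB4 (probe PSMB4_14756) was the only one of the 41 tested proteasome probes to pass an adjusted p under 0.05.

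The PSMB4 gene covers positions 151399534 to 151401944 of chromosome 1 on the plus strand (GRCh38, GENCODE 29). Probe PSMB4_14756 read 9214, 5190 and 4574 in the siCtrl libraries of BT549 and 3212, 2282 and 1434 in the siASAP1 libraries. In Hs578T it read 7036, 7729 and 6092 with siCtrl and 4560, 5267 and 3557 with siASAP1. In SUM149PT it read 2983, 5569 and 2845 with siCtrl, the middle value being that of the library labelled SUM149PT siCtrl 2, and 1719, 1788 and 1846 with siASAP1. The groups did not overlap in any of the 3 lines, and all 9 siASAP1 libraries lay below the siCtrl mean of their line. The siASAP1 mean was 36.5% of the siCtrl mean in BT549, 64.2% in Hs578T and 47.0% in SUM149PT. BT549 had a Log2 FC of -1.46 ± 0.40 (SE, as for every Log2 FC here), Hs578T had -0.65 ± 0.23 and SUM149PT had -1.02 ± 0.38. Over the 3 lines it was -1.04 ± 0.21, which passed the Benjamini-Hochberg adjustment over all 10475 probes (limma, adjusted p = 0.0118). Without the library labelled SUM149PT siCtrl 2 it was -0.96 (adjusted p = 0.0196 by limma), while the value in SUM149PT alone went to -0.71 and lost its call. That call was lost without any one of 5 of the 6 SUM149PT libraries, siCtrl replicate 3 being the exception, with values from -1.16 to -0.71.

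The second PSMB4 probe, PSMB4_5513, read 474, 222 and 243 with siCtrl and 201, 150 and 131 with siASAP1 in BT549. Hs578T gave 479, 387 and 166.5 with siCtrl and 301, 247 and 128 with siASAP1. In SUM149PT it read 184, 182 and 137 with siCtrl and 43.7, 92.3 and 121 with siASAP1. The groups overlapped in Hs578T and not in BT549 or SUM149PT, and all 9 siASAP1 libraries were again below the siCtrl mean of their line. The Log2 FC over the 3 lines was -0.84 ± 0.27, which did not pass adjustment (limma with Benjamini-Hochberg adjustment, adjusted p = 0.12). Within the groups, the deviations of both PSMB4 probes from their group mean had a correlation of 0.57 over the 18 libraries, given as a description.

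The PSMC4 gene covers positions 39971005 to 39981441 of chromosome 19 on the plus strand (GRCh38, GENCODE 29) and was measured with a single weak probe. The probe read 2.50, 19.5 and 18.2 in the siCtrl libraries of BT549 and 25.8, 67.0 and 110 in the siASAP1 libraries. Hs578T gave 20.3, 48.1 and 21.7 with siCtrl and 22.7, 30.6 and 52.2 with siASAP1. In SUM149PT it read 21.5, 17.3 and 16.0 with siCtrl and 49.0, 155 and 28.9 with siASAP1. The groups did not overlap in BT549 and SUM149PT, and they overlapped in Hs578T. Of the 9 siASAP1 libraries, 8 lay above the siCtrl mean of their line. BT549 had a Log2 FC of 2.40 ± 0.87, Hs578T had 0.25 ± 0.58 and SUM149PT had 1.69 ± 0.77. For all lines it was 1.45 ± 0.48, which did not pass adjustment (adjusted p = 0.13, limma with Benjamini-Hochberg adjustment).

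The lowest PSMC4 value, in BT549 siCtrl 1, was 2 reads. Without that library the Log2 FC in BT549 was 1.57 and the call was lost (unadjusted p = 0.0592). The call was also lost without siASAP1 replicate 2 (Log2 FC 2.30) or replicate 3 (Log2 FC 1.94) of BT549. Without the library labelled SUM149PT siCtrl 2, the value in SUM149PT was 1.66 and still outside the limits. That value met the limits without SUM149PT siASAP1 replicate 3 (2.21, unadjusted p = 0.0296 by limma), with scaling by totals (1.90) and in a single fit of all libraries (1.69), and was 1.02 without siASAP1 replicate 2. The change of PSMC4 in BT549 and SUM149PT is not shown to differ from that in Hs578T, as the test of the difference between lines gave an adjusted p of 0.96 (limma, Benjamini-Hochberg).

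**Figure D1:**
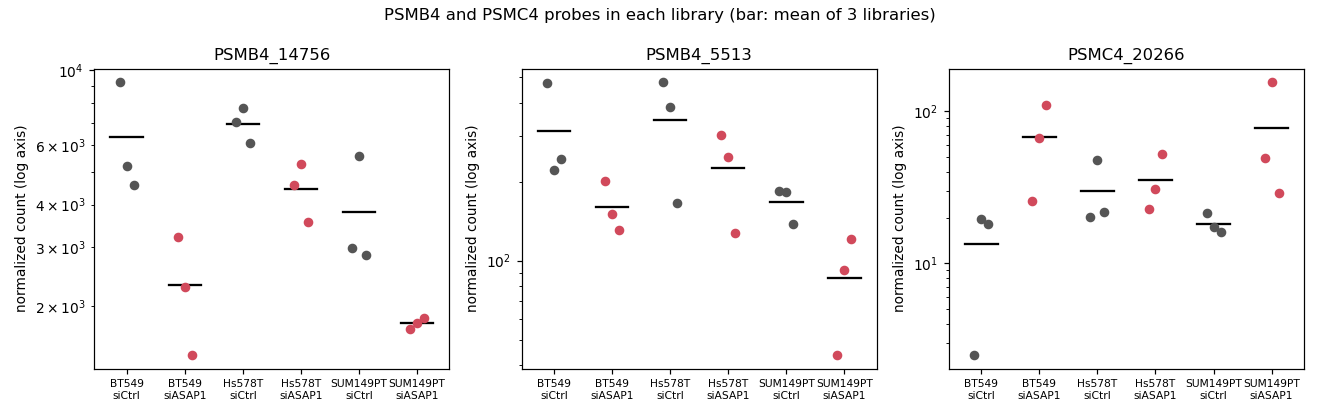
Normalized count (log axis) of both PSMB4 probes and of the PSMC4 probe in each of the 18 libraries, as points by cell line and treatment, with a bar at the mean of 3 libraries. The siASAP1 points of PSMB4_14756 lie below all siCtrl points of their line in the 3 lines, while those of PSMC4 lie above them in BT549 and SUM149PT and overlap in Hs578T.

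Over the lines together, most other beta-ring probes lay on the other side of 0 from PSMB4. The other ATPase probes shared the direction of PSMC4 there, at smaller values, but not in each line. In the fit over the lines, the 8 other beta-ring probes had Log2 FC values from -0.72 (PSMB1_5507) to 1.15 (PSMB7), with a median of 0.52, and 6 of them were positive. The 5 other ATPase probes lay between 0.00 (PSMC2) and 0.62 (PSMC3_5517), with a median of 0.39 and all above 0. In BT549 alone, the 5 other ATPase probes lay between 0.07 and 1.35. Of the 8 other beta-ring probes there, 4 were positive and 4 negative (lowest -1.20, PSMB1_5507). In Hs578T, 2 of the other ATPase probes were positive and 2 negative. In SUM149PT, 3 were positive and 2 negative (lowest -0.62, PSMC3_25991). The other beta-ring probes were 5 positive and 3 negative in Hs578T, and 6 positive and 1 negative in SUM149PT. The difference between PSMB4 or PSMC4 and their neighbours was not tested across genes, since genes of a complex are not replicates.

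In BT549, 4 of the 41 tested proteasome probes met the limits that the study set, a p below 0.05 before adjustment together with a Log2 FC beyond 1 in either direction. PSMC4 and PSMD13 were called higher, against 3.28% of all 9666 tested probes, and PSMB4_14756 and PSMA2 were called lower, against 3.69%. None of the 41, and 0% of all probes, had a Benjamini-Hochberg adjusted p under 0.05 by limma (754 of all probes and 4 proteasome probes had an unadjusted p under 0.05). Groups without overlap were found for 5 of the 41, namely PSMC4, PSMB2_13424, PSMA2 and both PSMB4 probes, against 13.9% of all probes. The median Log2 FC of the 41 was 0.10, beside -0.00 for all probes.

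PSMA2, an alpha-ring subunit, read 1456, 916 and 969 with siCtrl and 843, 281 and 127 with siASAP1 in BT549, without overlap. Its Log2 FC was -1.80 ± 0.60, and the call was lost without BT549 siASAP1 replicate 3 (Log2 FC -1.16). Hs578T gave 2284, 2330 and 632 with siCtrl and 1100, 1688 and 704 with siASAP1. In SUM149PT it read 322, 2127 and 203 with siCtrl and 306, 319 and 364 with siASAP1. The Log2 FC in SUM149PT turned from -0.66 to 0.36 without the library labelled SUM149PT siCtrl 2, which held the reading of 2127. For all lines it was -0.97 ± 0.44, or -0.70 without that library, and the former did not pass adjustment (limma with Benjamini-Hochberg adjustment, adjusted p = 0.28).

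PSMD13, a scaffold subunit of the 19S lid, read 49.9, 35.8 and 34.4 with siCtrl and 48.9, 208 and 150 with siASAP1 in BT549. The groups overlapped, because siASAP1 replicate 1 lay within the siCtrl range. The Log2 FC was 1.52 ± 0.60, and the call was lost without any one of siASAP1 replicates 2 and 3 and siCtrl replicates 2 and 3 (Log2 FC from 1.10 to 1.45). In Hs578T it read 30.4, 53.0 and 145 with siCtrl and 79.3, 78.6 and 165 with siASAP1, and in SUM149PT 67.2, 16.4 and 92.7 with siCtrl and 22.5, 169 and 43.4 with siASAP1. The groups overlapped in both lines. The Log2 FC in SUM149PT was 0.22, and -0.51 without the library labelled SUM149PT siCtrl 2, which held the reading of 16.4.

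In BT549 the 19S particle and the 20S rings also lay on different sides of 0. Of the 14 tested ATPase and non-ATPase probes of the 19S particle, 13 had a positive Log2 FC, with a median of 0.52, while 11 of the 17 tested 20S ring probes had a negative one, with a median of -0.39. These are counts of signs, and 2 probes of each met the limits. BT549 siASAP1 replicate 1 stood apart from the other siASAP1 libraries of the line in this respect, with the 20S probes at a median of 0.55 and the 19S probes at a median of -0.86 from the triplicate mean on the log2 scale. Without it, 4 proteasome probes were called higher and 6 lower in BT549, while all probes called rose from 674 to 2169. The other lines did not show this split. In Hs578T, 9 of 13 19S probes were positive with a median of 0.25, and 11 of 17 20S ring probes with a median of 0.11. In SUM149PT, 9 of 14 19S probes were positive with a median of 0.22, and 12 of 17 20S ring probes with a median of 0.49.

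In Hs578T, 0 of 40 tested proteasome probes met the limits in either direction, against 1.34% of all 9500 probes called higher and 1.44% called lower, and 0% of all probes passed an adjusted p under 0.05 (limma with Benjamini-Hochberg adjustment). At an unadjusted p under 0.05 stood 1 proteasome probe, PSMB4_14756, and 502 of all probes. Groups without overlap were found for 2 of the 40, PSMB4_14756 and PSMD10, both lower with siASAP1, against 12.1% of all probes. The median Log2 FC was 0.10, beside 0.01 for all probes.

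In SUM149PT, 0 of 41 tested proteasome probes were called higher, against 5.27% of all 10078 probes, and PSMD10 and PSMB4_14756 were called lower, against 4.29%. No proteasome probe and 0% of all probes passed an adjusted p under 0.05 (limma with Benjamini-Hochberg adjustment), while 3 proteasome probes and 1025 of all probes had an unadjusted p under 0.05. Groups without overlap were found for 7 of the 41, against 17.3% of all probes. These were PSMC4 and PSMB2_13424, higher with siASAP1, and PSMD10, PSMA4, PSMF1 and both PSMB4 probes, lower. The median Log2 FC was 0.24, beside 0.09 for all probes. Without the library labelled SUM149PT siCtrl 2, 4 proteasome probes were called higher and 2 lower, while calls over all probes went from 9.56% (963 probes) to 23.4% (2325 probes).

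PSMD10, the assembly chaperone also known as gankyrin, read 336, 263 and 296 with siCtrl and 70.1, 190 and 97.2 with siASAP1 in SUM149PT. Hs578T gave 394, 329 and 470 with siCtrl and 246, 230 and 289 with siASAP1. In BT549 it read 493, 390 and 359 with siCtrl and 250, 440 and 318 with siASAP1, with overlap. The Log2 FC was -1.44 ± 0.50 in SUM149PT, and -1.52 without the library labelled SUM149PT siCtrl 2. The call was lost without SUM149PT siASAP1 replicate 1 or 3 or siCtrl replicate 1 or 3 (Log2 FC from -1.44 to -1.12). For all lines it was -0.80 ± 0.22, and 8 of 9 siASAP1 libraries lay below the siCtrl mean of their line (adjusted p = 0.072, limma with Benjamini-Hochberg adjustment).

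PSMB2, a beta-ring subunit, had the smallest p among the probes with a positive value over the 3 lines. Its probe PSMB2_13424 read 1208, 1059 and 1185 with siCtrl and 1512, 1493 and 1398 with siASAP1 in BT549. In Hs578T it read 1366, 1110 and 1116 with siCtrl and 1610, 1167 and 1849 with siASAP1, and in SUM149PT 1249, 1510 and 958 with siCtrl and 2253, 2475 and 2321 with siASAP1. The groups overlapped in Hs578T alone. In SUM149PT the Log2 FC was 0.95, and 1.10 and called without the library labelled SUM149PT siCtrl 2. The Log2 FC over the 3 lines was 0.55 ± 0.15 (limma, Benjamini-Hochberg adjusted p = 0.070), and 0.68 when libraries were scaled by their totals (adjusted p = 0.0387). It also passed without Hs578T siASAP1 replicate 2 (0.62, adjusted p = 0.0411 by limma). That scaling moved the median of all probes from 0.02 to 0.14. The other PSMB2 probe, PSMB2_5510, read between 0 and 205 and gave 0.64 ± 1.08.

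PSMF1, known as the proteasome inhibitor PI31, read 35.8, 43.7 and 33.6 with siCtrl and 21.2, 23.1 and 11.8 with siASAP1 in SUM149PT, without overlap. In BT549 it read 227, 79.9 and 93.3 with siCtrl and 72.9, 88.7 and 60.2 with siASAP1, and in Hs578T 55.7, 97.9 and 40.4 with siCtrl and 52.1, 65.3 and 38.4 with siASAP1. The groups overlapped in these 2 lines. Over the 3 lines the Log2 FC was -0.65 ± 0.29 (-0.60 without the library labelled SUM149PT siCtrl 2), which did not pass adjustment (adjusted p = 0.28 by limma with Benjamini-Hochberg adjustment).

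Over the 3 lines together, 0 of the 41 proteasome probes were called higher, against 0.678% of all probes, and 1 was called lower, PSMB4_14756, against 1.06%. At an unadjusted p under 0.05 stood 7 of the 41, and 1660 of all 10475. Positive values were found for 27 of the 41 and negative ones for 14, with a median of 0.18 beside 0.02 for all probes. By role, 13 of 14 probes of the 19S particle were positive with a median of 0.34, as were 9 of 17 probes of the 20S rings with a median of 0.14, and 5 of the 10 others. None of the 41 differed in its response between the cell lines by the limma interaction test, against 0.00955% of all probes, and 0 had an unadjusted p under 0.05 there (652 of all probes did).

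**Figure D2:**
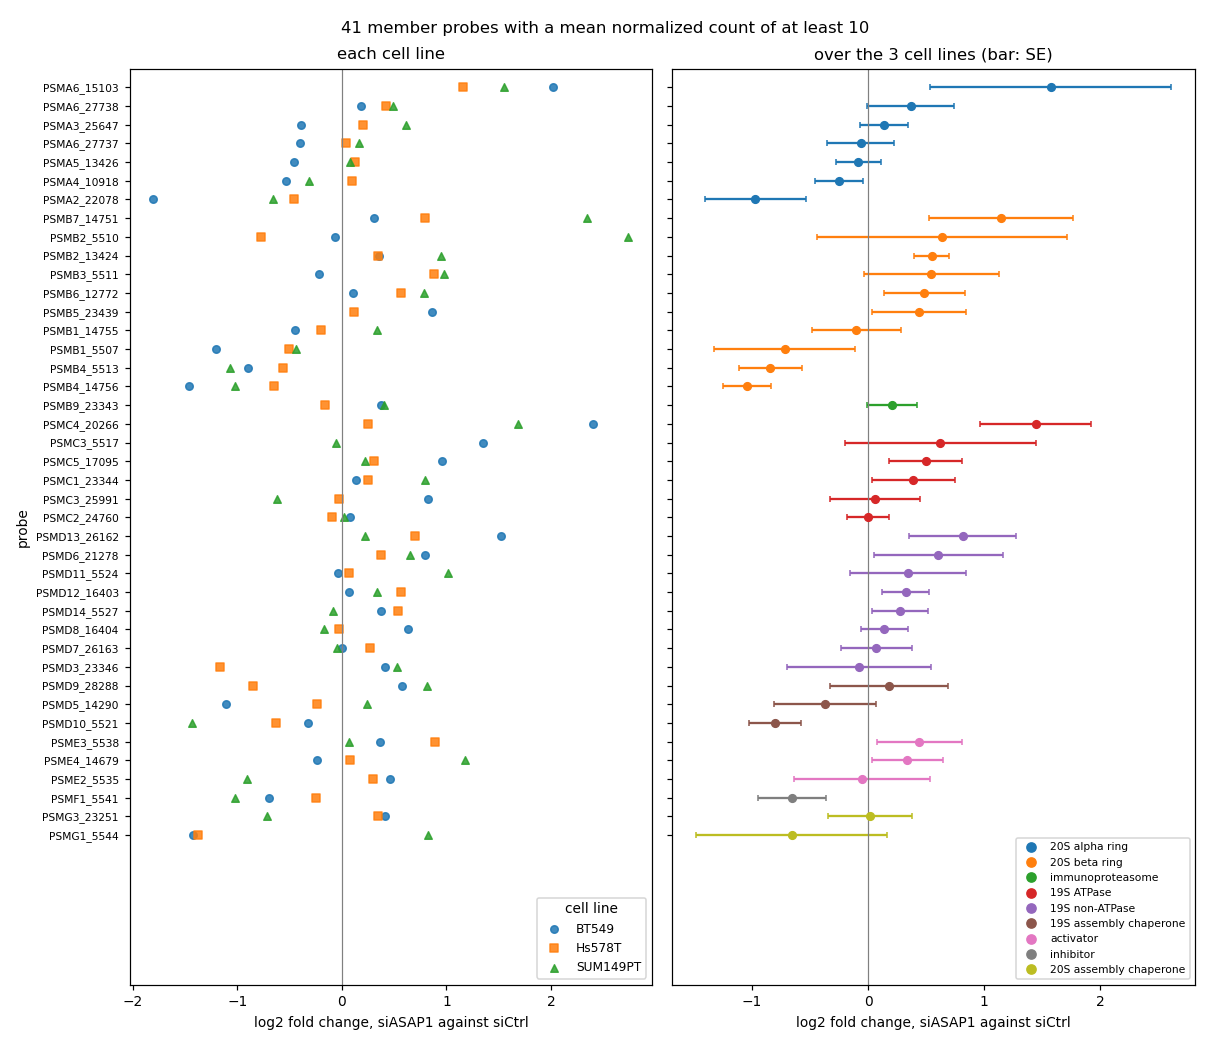
Log2 FC of siASAP1 against siCtrl for the 41 proteasome probes tested over the 18 libraries, ordered by role, in each cell line (left) and over the 3 lines with its SE (right). PSMB4_14756 at -1.04 is the lowest of the beta-ring probes and PSMC4 at 1.45 the highest of the ATPase probes, and the cell lines lie far apart for weakly read probes such as PSMB2_5510 (-0.77 to 2.74). PSMB5 has no point in SUM149PT and PSMC3_5517 none in Hs578T, where they were not tested.

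The spread between replicates was also described for these genes. For each library, the deviation of each probe from the mean of its triplicate was taken, and its median over the 17 probes of the 20S rings and over the 14 ATPase and non-ATPase probes of the 19S particle. The medians had opposite signs in 13 of the 18 libraries. The widest gap was in the library labelled SUM149PT siCtrl 2, with 0.62 for the 20S and -1.27 for the 19S probes on the log2 scale. SUM149PT siCtrl 3 lay the other way, with -0.65 and 0.85, as did Hs578T siCtrl 3, with -0.58 and 0.55. Over all probes, the SD of these deviations was between 0.55 and 1.40 in the 18 libraries.

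A few pairs of probes, not planned beforehand, were picked for description and are not a survey of all pairs. Over the 18 libraries, deviations of PSMA2 had a correlation of 0.92 with those of PSMB1_5507, 0.86 with those of PSMB4_14756 and -0.91 with those of the ATPase PSMC5, whose own deviations had a correlation of 0.90 with those of PSMC3_25991. PSMC4 had 0.28 with PSMC5, and PSMA3 of the alpha ring had 0.81 with the activator PSME4. PSMC5 read 459, 516 and 441 with siCtrl and 441, 1088 and 1610 with siASAP1 in BT549, 730, 644 and 2065 with siCtrl and 1140, 1127 and 1442 with siASAP1 in Hs578T, and 1001, 281 and 1183 with siCtrl and 519, 1152 and 882 with siASAP1 in SUM149PT. These correlations are descriptions over the same 18 libraries, and what they rest on was not tested. The deviations of each triplicate sum to 0, so the 18 values are not independent.

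In SUM149PT the libraries split in a like way for several weaker probes. PSMD11, a 19S lid subunit, read 234 in the library labelled SUM149PT siCtrl 2 and 316 and 225 in siASAP1 replicates 1 and 3, but 32.9 and 33.6 in the other siCtrl libraries and 30.8 in siASAP1 replicate 2. PSMB2_5510 read 205, 108 and 156 in the first 3 of these and 1.43, 0 and 7.69 in the others. PSMA6_15103 read 113, 83.3 and 86.7 in the first 3 and 0, 1.60 and 0 in the others. For these probes the split crossed the treatment labels, unlike for UBE2M, NPLOC4 and FN1. Transcript GC content moved with the deviation as well. Across the 41 probes of a library, the correlation of deviation with GC content lay between -0.52 (BT549 siASAP1 1) and 0.47 (SUM149PT siCtrl 1). Over all 10208 probes with a GC value it lay between -0.46 (BT549 siASAP1 1) and 0.42 (BT549 siASAP1 3). The median GC content was 46.6% for the 20S genes and 48.8% for the 19S genes. The part of GC content in these results was not tested beyond a correction that left PSMB4_14756 at -1.11 and PSMC4 at 1.32 over the 3 lines.

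**Figure D3:**
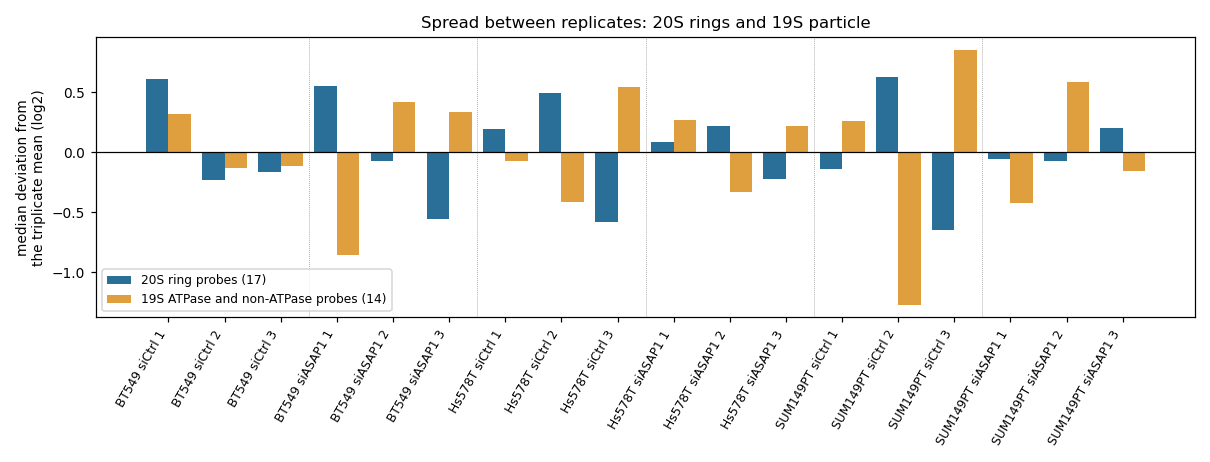
Median deviation from the triplicate mean (log2) of the 17 probes of the 20S rings and the 14 ATPase and non-ATPase probes of the 19S particle, as a pair of bars for each of the 18 libraries. The bars of a pair point in opposite directions in 13 libraries, most widely in the library labelled SUM149PT siCtrl 2 (0.62 and -1.27).

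The immunoproteasome could be followed by PSMB9 alone. PSMB8 was read in 1 library, at 4.99, and PSMB10 in 2 libraries, at 3.56 and 10.0, all of them BT549. PSMB9 read 765, 494 and 352 with siCtrl and 762, 749 and 510 with siASAP1 in BT549. In Hs578T it read 937, 1190 and 1073 with siCtrl and 809, 1539 and 689 with siASAP1, and in SUM149PT 290, 209 and 299 with siCtrl and 320, 537 and 243 with siASAP1. The groups overlapped in the 3 lines. The Log2 FC of PSMB9 in BT549 was 0.38 ± 0.41, that in Hs578T -0.16 ± 0.33 and that in SUM149PT 0.40 ± 0.46, with 0.21 ± 0.22 over the 3 lines (limma, Benjamini-Hochberg adjusted p = 0.71).

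The constitutive catalytic subunits gave no call either. PSMB6, which PSMB9 replaces in the immunoproteasome, read 213, 58.5 and 150 with siCtrl and 140, 159 and 106 with siASAP1 in BT549. It read 330, 291 and 64.0 with siCtrl and 310, 339 and 193 with siASAP1 in Hs578T, and 117, 79.3 and 38.4 with siCtrl and 112, 191 and 86.7 with siASAP1 in SUM149PT. The groups overlapped in each line. PSMB5 was weakly read, with 8.73, 10.1 and 4.91 for siCtrl and 12.4, 9.44 and 26.5 for siASAP1 in BT549, 23.6, 9.79 and 7.88 for siCtrl and 14.7, 12.7 and 12.8 for siASAP1 in Hs578T, and 7.15, 2.73 and 14.4 for siCtrl and 7.94, 20.5 and 3.94 for siASAP1 in SUM149PT. PSMB7 gave 54.9, 37.1 and 20.3 for siCtrl and 52.4, 38.7 and 39.2 for siASAP1 in BT549, 1.69, 24.5 and 10.8 for siCtrl and 22.7, 27.2 and 5.33 for siASAP1 in Hs578T, and 11.4, 39.2 and 0 for siCtrl and 35.7, 37.2 and 46.0 for siASAP1 in SUM149PT. Both overlapped between the groups of every line. The Log2 FC in the fit over the lines was 0.44 ± 0.41 for PSMB5, 0.49 ± 0.35 for PSMB6 and 1.15 ± 0.62 for PSMB7. Without the library labelled SUM149PT siCtrl 2, which read 39.2 for PSMB7, that gene was called higher in SUM149PT (3.52, unadjusted p = 0.021 by limma).

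Between the siCtrl groups, PSMB9 was lowest in SUM149PT and highest in Hs578T, without overlap between any of the lines. The Log2 FC of SUM149PT against Hs578T was -2.01 ± 0.36 (limma, Benjamini-Hochberg adjusted p = 0.0027), and -1.85 without the library labelled SUM149PT siCtrl 2. BT549 lay between them, at -1.05 ± 0.36 against Hs578T, and SUM149PT was at -0.96 ± 0.36 against BT549. Neither neighbour in this order passed adjustment (adjusted p = 0.084 and 0.10 by limma with Benjamini-Hochberg adjustment). The comparison of BT549 with Hs578T passed without the library labelled SUM149PT siCtrl 2, which enters the shared estimate of spread, and without BT549 siCtrl replicate 1, at -1.35 (limma, adjusted p = 0.0346 and 0.0347).

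PSMA3, an alpha-ring subunit, was highest in SUM149PT and lowest in BT549. It read 2125, 1591 and 1852 in BT549, 3175, 3126 and 2484 in Hs578T and 5303, 7860 and 4802 in SUM149PT with siCtrl. SUM149PT lay above both other lines without overlap. The Log2 FC was 1.67 ± 0.30 against BT549 (adjusted p = 0.0035, limma with Benjamini-Hochberg adjustment) and 1.01 ± 0.30 against Hs578T (adjusted p = 0.042). Without the library labelled SUM149PT siCtrl 2 these were 1.45 and 0.79, and the second no longer met the limit on size. The call against Hs578T was lost without any one of 8 of the 9 siCtrl libraries, BT549 siCtrl 1 being the exception (0.79 to 1.15). BT549 against Hs578T was -0.66 ± 0.30 and did not pass. With siASAP1 the same order held, with 980 to 2284 in BT549, 3006 to 3643 in Hs578T and 5901 to 11442 in SUM149PT.

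The siCtrl comparisons share libraries, since SUM149PT siCtrl enters 2 of them and also the silencing comparison in that line. A call here needed an adjusted p below 0.05 together with a Log2 FC beyond 1 in either direction. By this rule, 0 of 40 tested proteasome probes were called between BT549 and Hs578T, against 6.26% of all 10255 probes higher and 7.58% lower. Between SUM149PT and BT549, PSMA3 was called higher, against 9.40%, and 0 of 40 lower, against 8.76%. Between SUM149PT and Hs578T, PSMA3 was called higher, against 9.64%, and PSMB9 lower, against 10.5%. At an unadjusted p under 0.05 by limma stood 2, 4 and 3 of the 40 in these comparisons, against 2660, 3083 and 3385 of the 10255. The median Log2 FC of the 40 was -0.21, 0.03 and -0.41, beside 0.01, -0.04 and -0.00 for all probes. Without the library labelled SUM149PT siCtrl 2, 3 proteasome probes were called in each direction against BT549 and 1 higher and 4 lower against Hs578T, among them PSMB4_14756, lower at -1.05 and -1.25. Calls over all probes rose at the same time, from 1862 to 3351 (33.2%) and from 2070 to 3103 (30.7%).

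**Figure D4:**
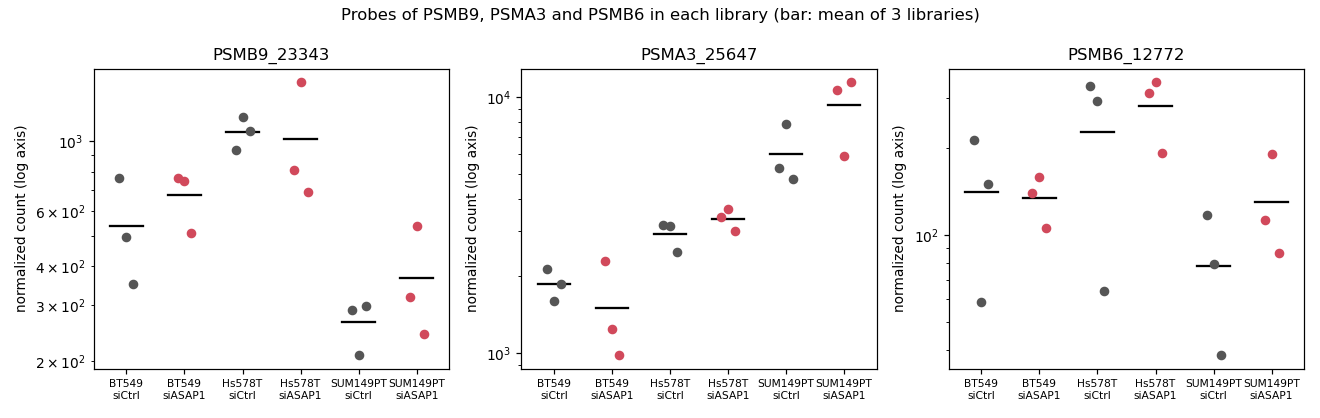
Normalized count (log axis) of the probes of PSMB9, PSMA3 and PSMB6 in each of the 18 libraries by cell line and treatment, with a bar at the mean of 3 libraries. With siCtrl, PSMB9 is lowest and PSMA3 highest in SUM149PT without overlap with the other lines, while the PSMB6 groups overlap.

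Genes that share pathways with the proteasome were described from lists of symbols. Of 15 tested probes (14 in SUM149PT) for proteasome genes without a PSM symbol (receptors, deubiquitinases, chaperones and the factor NFE2L1 among them), 0 were called in any silencing comparison. Over all probes, 6.97% were called in BT549, 2.78% in Hs578T, 9.56% in SUM149PT and 1.74% over the 3 lines. USP14, AKIRIN2 and TXNL1 were, without the library labelled SUM149PT siCtrl 2, called higher in SUM149PT (1.71, 1.44 and 2.17). Of all probes, 23.4% were called in that fit. SHFM1, the small lid subunit now called SEM1, read 483, 263 and 300 in BT549 siCtrl, 848, 714 and 772 in Hs578T siCtrl and 997, 1011 and 989 in SUM149PT siCtrl. It was lower in BT549 than in Hs578T by a Log2 FC of -1.20 ± 0.31 and higher in SUM149PT than in BT549 by 1.57 ± 0.31 (limma with Benjamini-Hochberg adjustment, adjusted p = 0.0299 and 0.0059), the latter being 1.56 without the library labelled SUM149PT siCtrl 2. The 19S-bound deubiquitinase USP14 read 21163 in the library labelled SUM149PT siCtrl 2 and 1718 and 1499 in the other siCtrl libraries of that line, and 7403, 2013 and 9730 with siASAP1, in the split seen for PSMD11.

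Of 18 tested probes for ubiquitin, its enzymes and shuttle factors, 4 were called in BT549, 2 in Hs578T and 2 in SUM149PT, against 6.97%, 2.78% and 9.56% of all probes. With the library labelled SUM149PT siCtrl 2 left out, 1 was called higher and 5 lower in that line, against 23.4%. UBE2M, the conjugating enzyme for the ubiquitin-like protein NEDD8, was called lower in each line and over the 3 lines. It read 695, 432 and 434 with siCtrl and 180, 311 and 235 with siASAP1 in BT549, 575, 391 and 999 with siCtrl and 350, 306 and 236 with siASAP1 in Hs578T, and 784, 399 and 1053 with siCtrl and 90.0, 164 and 158 with siASAP1 in SUM149PT. The groups did not overlap in any line, and the Log2 FC over the 3 lines was -1.51 ± 0.27 (adjusted p = 0.0072, limma with Benjamini-Hochberg adjustment). It was -1.56 without the library labelled SUM149PT siCtrl 2. SQSTM1, the autophagy receptor p62, was called higher in BT549 (1.62 ± 0.55) and Hs578T (1.11 ± 0.41). In BT549 the ubiquitin gene UBB (probe UBB_17534) and ZFAND2A, a proteasome-binding stress protein, were called higher too, at 1.26 ± 0.41 and 1.27 ± 0.48. In SUM149PT the VCP cofactor NPLOC4 was called higher, at 1.45 ± 0.40 and at 1.44 without the library labelled SUM149PT siCtrl 2.

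Of 8 tested probes for MHC class I presentation and interferon genes, 1 was called in BT549, 1 in Hs578T and 0 in SUM149PT. Over all probes, 6.97%, 2.78% and 9.56% were called in these lines. The called gene was TAP1, the neighbour of PSMB9, higher with siASAP1 in BT549 and Hs578T. With the library labelled SUM149PT siCtrl 2 left out, NLRC5 and B2M were called higher and TAPBP lower in that line. Of all probes, 23.4% were called in that fit. TAP1 read 7.49, 3.77 and 18.2 with siCtrl and 37.3, 74.6 and 25.6 with siASAP1 in BT549, and 15.2, 26.1 and 21.7 with siCtrl and 83.9, 41.6 and 101 with siASAP1 in Hs578T. The groups did not overlap in these lines, and the Log2 FC was 2.21 ± 0.81 and 1.74 ± 0.51, where PSMB9 had 0.38 and -0.16. In SUM149PT siASAP1 it read 6.62, 76.9 and 6.57, on both sides of the siCtrl values of 22.9, 19.1 and 16.0. Between the siCtrl groups, the transcription factors IRF1 and NLRC5 and the MHC light chain B2M were called lower in SUM149PT than in Hs578T, at -2.19 ± 0.44, -4.22 ± 1.04 and -3.96 ± 0.81, beside -2.01 ± 0.36 for PSMB9. Over all probes, 10.5% were called lower in that comparison. NLRC5 read 0, 23.7 and 1.60 in SUM149PT siCtrl, the 23.7 in the library labelled SUM149PT siCtrl 2. Without that library the values were -1.85 for IRF1, -5.53 for NLRC5 and -4.53 for B2M.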

How the data were processed

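The data were 18 TempO-Seq libraries, 3 for each of 6 groups that the labels give by cell line and siRNA. The authors assigned reads to probes, divided each library by its DESeq2 size factor and deposited log2 of the normalized count plus 1. The submitters' processing notes name bcl2fastq, Bowtie and DESeq2, and the genome build is not given in the sources used here. The depth behind each value followed from the values themselves, since 100% of them were whole multiples of 1 read per library (tolerance 0.01). 0 columns were left unmapped.

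Each line was fitted alone, and the lines also together with the line as a covariate, with limma 3.58.1 (R 4.3.3), using a mean-variance trend. Probes entered a fit where their normalized counts averaged 10 or more. Adjustment followed Benjamini and Hochberg across every probe of a fit. The deposited values contain a pseudocount of 1, which understates the Log2 FC of weak probes. An exact permutation test of 3 libraries against 3 cannot go below p = 0.1, so it was not used. P-values measure the spread between these libraries. The fits were tested on simulated reads with large known changes and independent probes. That test does not cover smaller changes or shifts that many probes of a library share. Alternatives were another scaling, no filter, a pseudocount of 5, voom weights on the recovered reads, the replicate block, a single fit, other call limits and each replicate left out, and, chosen after seeing the data, a correction for GC content in 20 bins.

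The members and lists were chosen with earlier results of these data known. Values in every library are given for PSMB4 and PSMC4, the testable immunoproteasome and its constitutive counterparts, 4 genes of the study's lists for 1 line (PSMC5, PSMA2, PSMD13 and PSMD10) and every called member. PSMB2, PSMF1 and single probes of PSMD11, PSMB2 and PSMA6 were named after their values were seen. The pairs of probes whose deviations were correlated were not planned either. Positions are from GENCODE 29 on GRCh38 and promoters from RefSeq. Of the members, 9 have pseudogenes in GENCODE (29 in all, none for PSMB4, PSMC4, PSMB9 or PSMA3, 3 each for PSMA2 and PSMD10). The probe sequences were not used here, so whether a probe also reads a pseudogene was not determined. GC content matched 97.2% of symbols. Python 3.11.15 with matplotlib 3.10.9 drew the figures.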

Additional observations from a re-analysis of the deposited data

How the results depend on the processing

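Replicate numbers are shared between groups, but libraries that share a number within a line had deviations from their group means that correlated from -0.35 to 0.11 in BT549, 0.099 to 0.35 in Hs578T and -0.65 to -0.32 in SUM149PT, so the numbers were not taken to pair samples. With the replicate block, 0 proteasome probes were called lower in SUM149PT and 0 higher between SUM149PT and Hs578T, and over the 3 lines 34 of all probes were called in place of 182. Of all probes, the block called 3.48% in SUM149PT and 22.4% between SUM149PT and Hs578T, in either direction.

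PSMB4_14756 kept its direction and its call over the 3 lines in all settings (Log2 FC -1.11 to -0.91). Counts of called proteasome probes moved as follows. In BT549, higher calls went from 2 to 1 with voom weights or a single fit and to 0 with adjusted p, and lower calls from 2 to 0 with adjusted p. Calls over all probes there went from 6.97% to 6.31% with voom weights, 6.27% in a single fit and 0% with adjusted p. In SUM149PT, higher calls went from 0 to 2 with scaling by totals and 4 in a single fit, and lower calls from 2 to 1 with scaling by totals and 0 with adjusted p. Calls over all probes there went from 9.56% to 10.1% with scaling by totals, 15.5% in a single fit and 0% with adjusted p. Over the 3 lines, higher calls went from 0 to 1 with scaling by totals (PSMB2_13424) and with unadjusted limits (PSMC4), and lower calls from 1 to 2 with the GC correction (PSMA2). Calls over all probes went from 1.74% to 1.93% with scaling by totals, 6.48% with unadjusted limits and 2.04% with the GC correction. Between SUM149PT and BT549 siCtrl, higher calls went from 1 to 2 with the GC correction and lower calls from 0 to 2 with that correction or scaling by totals. Of all probes, 18.6% were called with the correction and 18.1% with scaling by totals, against 18.2% in the main fit. Between SUM149PT and Hs578T siCtrl, higher calls went from 1 to 0 without a filter, where calls over all probes went from 20.2% to 13.6%. Scaling by totals moved higher calls of all probes from 39.0% to 60.4% over the 3 lines, 48.1% to 69.5% in Hs578T and 55.1% to 73.8% in SUM149PT, and the GC correction moved the last to 43.8%.

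Leaving out 1 replicate gave 0 to 4 higher and 1 to 6 lower calls in BT549, 0 to 1 and 0 to 3 in Hs578T, 0 to 4 and 0 to 2 in SUM149PT, and 0 to 1 and 1 to 1 over the 3 lines. Calls over all probes ranged from 325 to 2169, 158 to 634, 501 to 2325 and 99 to 206 in the same fits. Between siCtrl groups it gave 0 to 2 lower for BT549 against Hs578T, 1 to 3 higher and 0 to 3 lower for SUM149PT against BT549, and 0 to 1 higher and 1 to 4 lower for SUM149PT against Hs578T. The share of all probes called in either direction ranged from 8.81% to 21.3%, 12.8% to 33.2% and 13.3% to 30.7% in these fits.

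Signs turned for results that passed no test. Leaving out 1 replicate gave Log2 FC values from -0.43 to 0.50 for PSMB6 and -0.068 to 0.63 for PSMB7 in BT549. In Hs578T the ranges were -0.070 to 0.64 for PSMC4, -0.51 to 0.072 for PSMB9, -0.18 to 0.56 for PSMB5, -0.18 to 0.99 for PSMB6, -0.10 to 1.52 for PSMB7 and -0.53 to 0.10 for PSMF1. In SUM149PT they were -1.33 to 0.36 for PSMA2, -0.58 to 0.85 for PSMD13 and -0.43 to 0.61 for PSMC5. Between siCtrl groups they were -0.54 to 0.22 for PSMB4_5513 in BT549 against Hs578T (0.11 with scaling by totals), and -0.055 to 1.22 for PSMC4 and -0.078 to 0.85 for PSMG3 in SUM149PT against BT549 (-0.069 for PSMG3 with the GC correction). The cause was not tested.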
